A study of Mus musculus with 18 samples.

Results

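A set of 10 chemokine and cytokine genes of fibroblasts was followed here: the CC chemokines *Ccl2*, *Ccl5*, *Ccl7*, *Ccl8* and *Ccl11*, the CXC chemokines *Cxcl1*, *Cxcl5*, *Cxcl12* and *Cxcl14*, and interleukin 6, *Il6*. They were taken by gene symbol, and all 10 were found among the 21959 genes listed for mouse embryonic fibroblasts (MEFs) and among the 51826 genes listed for liver. RNA-seq was made from RepB-/- mice, in which CRISPR/Cas9 with a pair of guides had removed repeat B of the long noncoding RNA gene *Xist*, and from wild-type (WT) mice. Each genotype gave 3 libraries from primary MEFs and 3 from liver, with genotype and replicate number read from the letters B and W and the digits in the library titles. The deletion was carried by every cell of the RepB-/- animals, no treatment is named for either genotype, and the labels give neither age nor sex. The study bred females homozygous for the deletion, from hemizygous fathers and heterozygous mothers, and does not give the sex behind single libraries. The titles call the cultured cells MEFs while their tissue label is tail, and libraries from brain were not used. Nothing in the labels says that the 3 libraries of a group came from separate animals or cultures, so the p-values measure the spread between these libraries, which may be technical.

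Chemokines are small secreted proteins that guide white blood cells along concentration gradients by binding receptors with a G protein behind them. Fibroblasts make them when cytokines such as TNF and interleukin 1 act through NF-kB. *Ccl2* and *Ccl7* then draw in monocytes, *Ccl11* eosinophils, *Ccl5* T cells and monocytes, and *Cxcl1* and *Cxcl5* neutrophils. *Cxcl12* is made by stromal cells without inflammation and holds cells that carry its receptor CXCR4, *Cxcl14* is also made constitutively, and interleukin 6 signals through the shared receptor chain gp130, the product of *Il6st*, to the transcription factor STAT3.

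MEF libraries held between 11540344 and 20587556 counts and liver libraries between 37682201 and 51542709. The MEF libraries also differed by genotype in the number of genes with a count, 15453 to 15545 in RepB-/- and 17191 to 17664 in the shallower WT libraries, and the part of this in the results was not tested. The fibroblast genes *Col1a1* and *Pdgfra* were detected in every MEF library at 5076 CPM or more and 99.2 CPM or more, and the 7 hepatocyte genes listed summed to at most 1.52 CPM there, against 140300 CPM or more in liver. In liver, replicate 1 of both genotypes stood apart, with the fetal genes *Afp* at 507 and 369 CPM and *H19* at 3880 and 3541 CPM, where the other 4 libraries were at or below 6.04 and 12.4 CPM. *Xist* was not among the genes listed for MEFs, so its level could not be read there. In liver it gave 14494 to 26345 counts in 5 libraries and 4 counts in RepB-/- replicate 2. That library also held 4342 counts of 4 Y-linked genes, against 0 or 1 in the other livers and 0 to 4 in MEF libraries. Its counts are those of a male, whereas the homozygous animals of the study are female. A count over the whole *Xist* gene does not show whether repeat B is present. Liver values are therefore also given without both replicate 1 libraries and without RepB-/- replicate 2.

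RefSeq (GRCm38.p6) promoter sequences were at hand for 5 of the 10 genes, and 4 of them are shown because their windows held letters of a searched motif. Each is the 250 bases before the start of the gene on the coding strand, 5′ to 3′, at chr5:30012864-30013113 (+) for *Il6*, chr5:90890995-90891244 (+) for *Cxcl1*, chr6:117168285-117168534 (+) for *Cxcl12* and chr11:82114935-82115184 (+) for *Ccl8*. Capitals mark a match on either strand to the kB motif (3 G, any 2 bases, 3 T and 2 C), AP-1 (TGANTCA), C/EBP (TTGCNNAA), the TATA box (TATAAA) or the GC box (GGGCGG).
Il6: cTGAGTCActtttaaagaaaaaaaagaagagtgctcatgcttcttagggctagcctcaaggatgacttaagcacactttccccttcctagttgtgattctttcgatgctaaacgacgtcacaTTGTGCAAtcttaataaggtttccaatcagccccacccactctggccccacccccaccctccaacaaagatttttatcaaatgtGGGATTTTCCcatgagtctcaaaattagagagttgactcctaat
Cxcl1: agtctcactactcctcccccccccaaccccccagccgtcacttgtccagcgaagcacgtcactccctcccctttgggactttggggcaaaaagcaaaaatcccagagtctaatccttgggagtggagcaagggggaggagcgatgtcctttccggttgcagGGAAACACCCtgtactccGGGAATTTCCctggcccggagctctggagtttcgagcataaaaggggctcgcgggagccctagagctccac
Cxcl12: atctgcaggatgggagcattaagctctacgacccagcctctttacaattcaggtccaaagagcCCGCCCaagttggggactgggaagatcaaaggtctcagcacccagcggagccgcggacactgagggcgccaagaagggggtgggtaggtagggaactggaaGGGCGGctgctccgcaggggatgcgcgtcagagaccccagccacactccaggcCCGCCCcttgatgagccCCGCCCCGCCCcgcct
Ccl8: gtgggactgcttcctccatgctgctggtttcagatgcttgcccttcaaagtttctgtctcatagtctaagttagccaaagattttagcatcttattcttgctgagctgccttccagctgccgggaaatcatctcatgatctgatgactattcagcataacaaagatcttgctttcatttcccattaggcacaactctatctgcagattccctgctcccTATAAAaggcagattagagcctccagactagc
The *Il6* window held AP-1 letters at -249 to -243, C/EBP letters at -128 to -121 and kB letters at -44 to -35, counted from the base before the start as -1. *Cxcl1* held 2 matches to the kB motif, at -89 to -80 and at -71 to -62, *Cxcl12* held 5 GC boxes and no kB letters, and *Ccl8* held the TATA box at -32 to -27. The last 2 of the GC boxes in *Cxcl12* overlap by 1 base. The window of *Cxcl14* (chr13:56296552-56296801, minus strand) held none of the 5 motifs. Of the 32851 windows of this length in the table, 1.41% held the kB motif, 6.75% AP-1, 9.56% C/EBP, 12.4% the TATA box and 32.7% the GC box. These are matches of letters, and binding was not measured here.

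The first comparison asked which of the 10 genes differed between RepB-/- and WT MEFs. Interleukin 6, *Cxcl12* and the 3 CC chemokines *Ccl2*, *Ccl7* and *Ccl8* rose in RepB-/- MEFs, between 2.26-fold and 3.51-fold. *Cxcl14* fell slightly, the neutrophil-attracting *Cxcl1* and *Cxcl5* and the eosinophil chemokine *Ccl11* did not pass the test, and *Ccl5* was too low to be tested. Thus 6 of the 9 tested genes were called at an adjusted p under 0.05 (edgeR quasi-likelihood test, Benjamini-Hochberg adjustment), 5 higher and 1 lower, where 39.1% of all 13306 tested genes were called, 19.4% higher and 19.7% lower. The median log2 fold change of the 9 genes was 1.18, and that of all tested genes was 0.0003. All 3 RepB-/- libraries lay above all 3 WT libraries for 5 of the 9 genes, a pattern seen in 26.4% of tested genes. The 10 genes were chosen with earlier results of these data known, so these shares are not a test of the set. Summed over the 10 genes, the level was 1556 to 1854 CPM in RepB-/- and 913 to 1203 CPM in WT, where CPM is the count per 1000000 counts of a library whose size was scaled by its TMM factor.

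**Figure D1:**
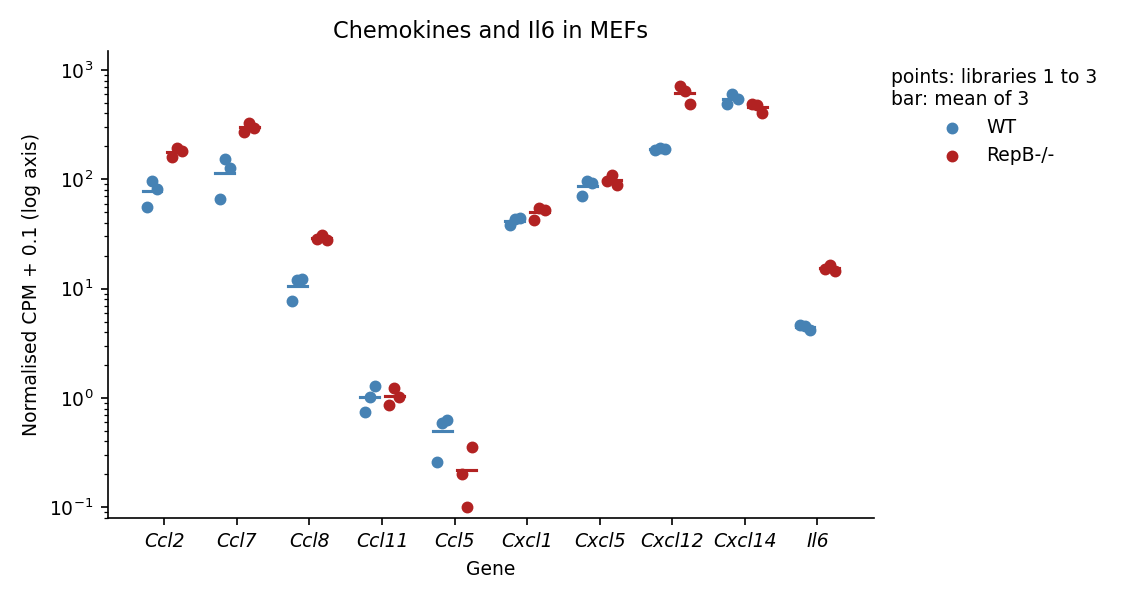
Normalised CPM plus 0.1 (log axis) of the 10 genes in MEFs, with a point for each of the 3 RepB-/- (red) and 3 WT (blue) libraries and a bar at the mean. The genotypes are apart for Ccl2, Ccl7, Ccl8, Cxcl12 and Il6, and overlap for Ccl11, Ccl5, Cxcl1, Cxcl5 and Cxcl14.

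*Il6*, whose product drives the acute phase response in liver and B cell growth, was at 15.0, 16.5 and 14.5 CPM in RepB-/- replicates 1 to 3 and at 4.57, 4.45 and 4.10 CPM in WT replicates 1 to 3. The lowest RepB-/- library was thus far above the highest WT library. The log2 fold change was 1.81 (SE 0.141, adjusted p = 1.19e-06), the largest of the 9 tested genes, and it stayed between 1.70 and 1.86 under 12 alternative settings.

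*Cxcl12*, the ligand of CXCR4 and of the scavenging receptor encoded by *Ackr3*, was the most abundant of the 10 genes by CPM in RepB-/- MEFs, at 711, 639 and 492 CPM. WT MEFs held 184, 192 and 188 CPM, close to each other, while RepB-/- replicate 3 was lower than the other RepB-/- libraries and still above every WT library. Its log2 fold change was 1.71 (SE 0.110, adjusted p = 2.22e-07).

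The CC chemokines *Ccl2*, *Ccl7* and *Ccl8* showed the same ordering of libraries. *Ccl8* was at 28.2, 30.9 and 28.0 CPM in RepB-/- and at 7.54, 11.9 and 12.1 CPM in WT, a log2 fold change of 1.45 (SE 0.144, adjusted p = 9.11e-06). *Ccl7* was at 269, 331 and 295 CPM in RepB-/- and at 66.2, 152 and 127 CPM in WT, a log2 fold change of 1.37 (SE 0.202, adjusted p = 1.87e-04). The RepB-/- libraries of these genes lay close together, and WT replicate 1, the shallowest library, was the lowest WT library for each. *Ccl2*, the main chemokine for monocytes that carry CCR2, was at 159.7, 192 and 182 CPM in RepB-/- and at 56.2, 97.3 and 81.5 CPM in WT, a log2 fold change of 1.18 (SE 0.143, adjusted p = 4.53e-05). Without WT replicate 1 the log2 fold changes were 1.28 for *Ccl8*, 1.10 for *Ccl7* and 0.99 for *Ccl2*, and all 3 were still called.

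*Cxcl14*, a constitutive chemokine of skin and stroma, was at 492, 478 and 401 CPM in RepB-/- and at 486, 606 and 548 CPM in WT. The groups overlapped, since RepB-/- replicate 1 was above WT replicate 1. The log2 fold change was -0.26 (SE 0.0963, adjusted p = 0.0465), and it was no longer called when any library other than WT replicate 1 was left out, with adjusted p-values up to 0.231.

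The neutrophil chemokines differed little. *Cxcl1* was at 42.6, 54.6 and 52.8 CPM in RepB-/- and at 37.9, 42.9 and 44.1 CPM in WT, a log2 fold change of 0.26 (95% interval 0.042 to 0.480, adjusted p = 0.0567), with overlapping groups. It was called without RepB-/- replicate 1, at a log2 fold change of 0.37 (adjusted p = 0.0136). *Cxcl5* was at 96.3, 110.3 and 88.7 CPM in RepB-/- and at 70.2, 95.6 and 92.6 CPM in WT, a log2 fold change of 0.19 (95% interval -0.048 to 0.426, adjusted p = 0.192), and its groups overlapped too. Both were called when every gene with a count was kept, with adjusted p = 0.00953 and 0.0375 in edgeR. These intervals lie below the log2 fold change of every member that rose.

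*Ccl11* and *Ccl5* were near the floor in MEFs. *Ccl11* was between 0.764 and 1.14 CPM in RepB-/- and between 0.641 and 1.19 CPM in WT. Its interval of -0.86 to 0.87 on the log2 scale leaves a change of that size in either direction undetectable at this depth. The interval lies below the log2 fold change of every member that rose, the smallest being 1.18 for *Ccl2*. *Ccl5* had 2, 0 and 5 counts in RepB-/- and 2, 8 and 9 counts in WT, and was removed by the filter on low counts. The library with 0 counts allows up to 0.150 CPM, which covers counting error only.

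Levels were compared between genes per transcript length, as TPM (transcripts in 1000000). In WT MEFs *Cxcl14* was the highest at 1183 ± 86.7 TPM (SD, n = 3), followed by *Ccl7* at 565 ± 200.2, *Ccl2* at 271 ± 62.5 and *Cxcl5* at 183 ± 23.8 TPM. *Cxcl12*, *Cxcl1* and *Ccl8* came next at 91.0 ± 1.55, 87.9 ± 4.91 and 80.9 ± 17.7 TPM, and their libraries overlapped. *Il6* was at 7.14 ± 0.547, *Ccl11* at 3.35 ± 0.955 and *Ccl5* at 1.62 ± 0.816 TPM. The order was different in RepB-/- MEFs, where *Ccl7* led at 1387 ± 152 TPM and *Cxcl14* followed at 931 ± 102 TPM, with no overlap of their libraries. *Ccl2* was at 582 ± 56.7, *Cxcl12* at 279.7 ± 51.1, *Ccl8* at 212 ± 13.4 and *Cxcl5* at 197 ± 23.0 TPM, and in that order *Ccl8* overlapped both of its neighbours. *Cxcl1* was at 99.2 ± 13.2, *Il6* at 23.5 ± 1.68, *Ccl11* at 3.23 ± 0.664 and *Ccl5* at 0.458 ± 0.493 TPM.

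Of the 10 genes, 7 lie in clusters of chemokine genes, and the neighbours did not move alike. *Ccl2*, *Ccl7*, *Ccl11*, *Ccl12*, *Ccl8* and *Ccl1* span 270.1 kb of chromosome 11 in the MEF table (GRCm39). *Ccl2* starts at 81926397 and *Ccl7* 10.1 kb further on, and both rose, as did *Ccl8* 79.6 kb from *Ccl2*. *Ccl11*, which lies between *Ccl7* and *Ccl8* at 22.2 kb, had a log2 fold change of 0.005, and *Ccl12* and *Ccl1* were at or below 0.0802 CPM in every library. The cluster on chromosome 5 holds *Cxcl5*, *Ppbp*, *Pf4*, *Cxcl3*, *Cxcl15*, *Cxcl1* and *Cxcl2* within 146.6 kb, and of these *Ppbp*, a platelet chemokine gene, was the sole gene called. *Ppbp* was at 4.89, 7.08 and 5.62 CPM in RepB-/- and 8.74, 18.7 and 17.8 CPM in WT, a log2 fold change of -1.38 (SE 0.239, adjusted p = 5.85e-04). *Cxcl3*, *Pf4* and *Cxcl2* had log2 fold changes of 0.28, 0.56 and -0.62 with adjusted p-values of 0.109 or more. *Ccl5* lies further along chromosome 11, at 83416604 to 83421344, in a stretch that also holds *Ccl9* and *Ccl6*, which rose, and *Ccl3* and *Ccl4*, which were too low to be tested. *Il6* lies outside these clusters on chromosome 5, *Cxcl12* on chromosome 6 and *Cxcl14* on chromosome 13. *Ccl2*, *Ccl7*, *Ccl8* and *Ccl12* are similar in sequence, and how reads shared between such genes were counted is not given in the sources used here.

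Among all CC chemokine ligands, 9 of 21 were tested in MEFs, 6 rose and 0 fell, with a median log2 fold change of 1.18. In all MEF lists these counts stand against 19.4% higher and 19.7% lower among all tested genes. The pathway and marker lists were chosen with earlier results of these data known, so this comparison is not a test. A single CC ligand, *Ccl25*, fell under library size alone, without a filter on low counts and without WT replicate 2. Beside the 3 members the CC ligands that rose were *Ccl20*, *Ccl6* and *Ccl9*. *Ccl20*, the ligand of CCR6, went from 0.321, 0.371 and 0.475 CPM in WT to 2.60, 2.58 and 1.72 CPM in RepB-/-, a log2 fold change of 2.52 (SE 0.394, adjusted p = 2.81e-04). *Ccl20* was near the floor in WT, with 4, 6 and 8 counts against 51, 50 and 34 in RepB-/-. It thus passed the filter on low counts through its RepB-/- libraries alone. *Ccl6* had a log2 fold change of 1.98 (SE 0.327, adjusted p = 4.17e-04). Of the 17 CXC, CX3C and XC ligands, 11 were tested, with 1 higher and 3 lower and a median of 0.098. *Cxcl12* was the one that rose. *Cxcl10*, an interferon-induced T cell chemokine, fell by 1.67 on the log2 scale (adjusted p = 0.0165 in edgeR), and *Ppbp* and *Cxcl14* fell by the values above. *Cxcl10* was near the floor, with 9, 7 and 3 counts in RepB-/- and 17, 12 and 18 counts in WT. With at least 1 CPM required in 3 libraries, 2 of these ligands fell. Without a filter on low counts 3 of these ligands rose, since *Cxcl1* and *Cxcl5* joined *Cxcl12*, and 1 gene fell without RepB-/- replicate 2 or 3. Without RepB-/- replicate 1 or WT replicate 2, 2 of them rose.

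The receptors of these chemokines were scarce in MEFs. Only 6 of 23 passed the filter on low counts, and *Ackr3*, a receptor that takes up *Cxcl12* without G protein signalling, rose from 38.7, 32.2 and 31.4 CPM in WT to 47.7, 47.3 and 53.3 CPM in RepB-/-, a log2 fold change of 0.54 (SE 0.0963, adjusted p = 7.38e-04). *Cxcr4*, the signalling receptor of *Cxcl12*, stayed between 1.37 and 1.90 CPM over the 6 libraries with a log2 fold change of -0.07. *Cx3cr1*, at 0.989 to 2.08 CPM in WT and 0.306 to 0.413 CPM in RepB-/-, fell by 1.90 on the log2 scale. It was near the floor in RepB-/- and passed the filter on low counts through its WT libraries. Between 0 and 2 receptor genes fell under the alternatives, with 2 when any RepB-/- library or WT replicate 3 was left out. *Ccr2*, the receptor of *Ccl2* and *Ccl7*, was at or below 0.103 CPM in every library.

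Genes of the interleukin 6 family were called in either direction, 5 higher and 5 lower of 12 tested, with a median log2 fold change of -0.39. Among the ligands *Il6* rose, whereas *Il11*, *Lif* and *Clcf1* fell. *Il11*, a fibroblast cytokine of the same family, was at 26.1, 31.4 and 38.2 CPM in RepB-/- and at 89.0, 124 and 104 CPM in WT, a log2 fold change of -1.73 (SE 0.135, adjusted p = 1.19e-06). *Lif*, which keeps mouse embryonic stem cells undifferentiated, had 43.3, 46.3 and 41.1 CPM in RepB-/- and 102, 82.7 and 82.0 CPM in WT, a log2 fold change of -1.03 (SE 0.0939, adjusted p = 4.58e-06). Neither ligand overlapped between genotypes, and 25.8% of all tested MEF genes had every RepB-/- library below every WT library. *Il6st*, encoding gp130, was at 867, 795 and 717 CPM in RepB-/- and at 466, 499 and 523 CPM in WT, a log2 fold change of 0.68 (SE 0.0842, adjusted p = 5.48e-05). *Osmr* and *Lifr*, whose products pair with gp130 for other ligands, rose by 0.94 and 0.75 on the log2 scale, and *Il11ra1* by 0.31. The chain that binds interleukin 6 itself, *Il6ra*, fell by 0.89 on the log2 scale, to 5.50, 5.99 and 5.57 CPM in RepB-/- from 14.3, 8.16 and 9.56 CPM in WT. *Cntfr* fell by 2.59 on that scale, to 1.17 to 1.78 CPM from 6.65 to 12.7 CPM.

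**Figure D2:**
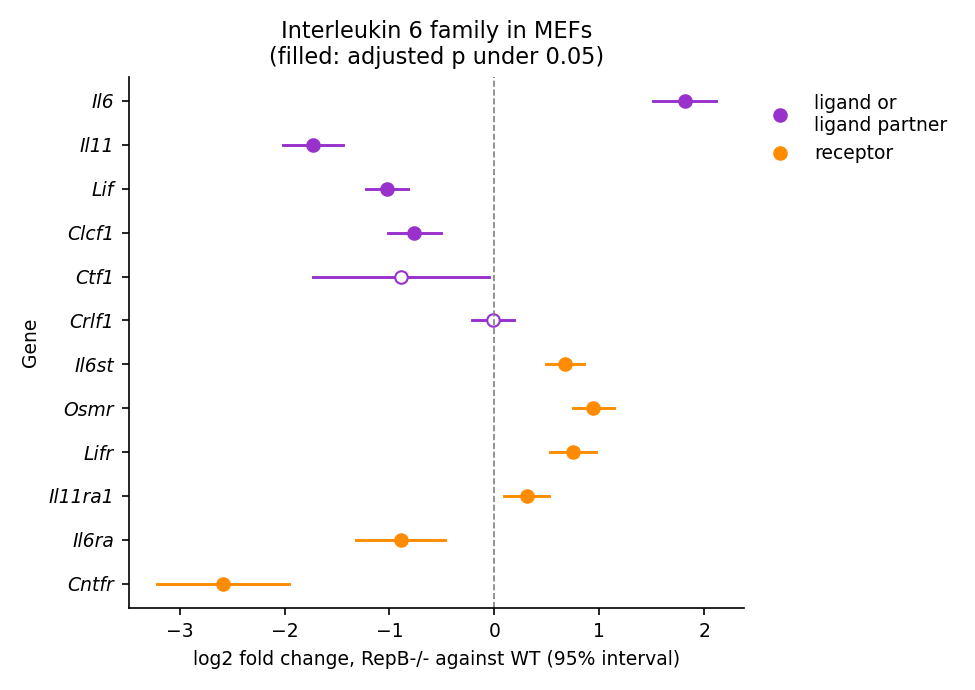
log2 fold change (RepB-/- against WT MEFs) with its 95% interval for the 12 tested genes of the interleukin 6 family, ligands and ligand partners in purple and receptors in orange. Filled points passed an adjusted p of 0.05; Il6, Il6st, Osmr, Lifr and Il11ra1 lie above 0, and Il11, Lif, Clcf1, Il6ra and Cntfr lie below.

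Downstream of gp130, 8 of the 12 genes of STAT3 with its kinases, feedback and target genes rose and 2 fell, with a median of 0.30. *Cebpd*, a transcription factor induced by STAT3, was at 144, 126 and 95.9 CPM in RepB-/- and at 46.8, 59.9 and 55.9 CPM in WT, a log2 fold change of 1.16 (SE 0.128, adjusted p = 2.14e-05). *Fos*, *Bcl3* and the kinase gene *Jak1* rose by 1.03, 0.89 and 0.85 on the log2 scale. *Socs3*, the feedback inhibitor of gp130, had a log2 fold change of 0.49 and *Stat3* one of 0.31. *Pim1* and *Junb* fell by 0.77 and 0.53 on that scale.

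For NF-kB, 17 genes of subunits, kinases and inhibitors were tested, 2 rose, 1 fell and 14 were not called, with a median of -0.11. *Nfkbia*, the inhibitor that NF-kB induces, rose by 0.39 and the kinase scaffold *Ikbkg* by 0.26 on the log2 scale, and *Nfkbiz*, a nuclear cofactor for *Il6* transcription, fell by 0.74. *Rela* and *Nfkb1*, the main subunits, had log2 fold changes of -0.13 and -0.12 with adjusted p-values of 0.177 and 0.272. Between 1 and 3 genes of this list rose and between 1 and 4 fell under the alternatives, 4 with library size alone and 2 without RepB-/- replicate 3, WT replicate 1 or WT replicate 3.

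Of 17 upstream cytokines and their receptors, 12 were tested, 10 rose and 1 fell, with a median of 0.53. The receptor genes for TNF, *Tnfrsf1b* and *Tnfrsf1a*, rose by 1.27 and 0.59 on the log2 scale, and those for interleukin 1, *Il1r1* and *Il1rap*, by 0.78 and 0.45. *Tnfrsf1b* was at 142, 143 and 147 CPM in RepB-/- and at 50.6, 63.9 and 64.7 CPM in WT, with no overlap. *Tlr3* and *Il1rn*, an antagonist of interleukin 1, rose by 1.11 and 1.01. The cytokines themselves, *Tnf*, *Il1a*, *Il1b*, *Ifng* and *Il17a*, were at or below 0.772 CPM in every library and were not tested.

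Factors that govern the decay of cytokine mRNAs gave 2 higher and 4 lower of 9 tested, with a median of -0.24, where 19.4% and 19.7% of all tested genes were higher and lower. *Rc3h1*, *Rc3h2* and *Zc3h12a*, which encode roquins and regnase that destabilise *Il6* and other inflammatory mRNAs, fell by 0.91, 0.38 and 0.38 on the log2 scale. *Zfp36l1*, of the tristetraprolin family, rose by 0.38, and *Zfp36* itself had a log2 fold change of 0.09 (adjusted p = 0.516). WT replicate 1 was the highest library for *Rc3h1*, at 119 CPM against 81.0 CPM in the next. In the alternatives the numbers of this list called ran from 1 to 2 higher and from 2 to 5 lower, with 1 higher and 2 lower without RepB-/- replicate 1 and 1 higher without RepB-/- replicate 2, WT replicate 2 or WT replicate 3.

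Other secreted inflammatory genes of fibroblasts gave 7 higher and 4 lower of 12 tested, with a median of 0.25. *Ptx3*, a soluble pattern recognition protein, was at 2310, 2067 and 1953 CPM in RepB-/- and at 392, 586 and 572 CPM in WT, a log2 fold change of 2.03 (SE 0.132, adjusted p = 2.29e-07). The acute phase genes *Saa3* and *Lcn2* rose by 1.64 and 0.96, with *Lcn2* overlapping between genotypes. *Csf3*, the growth factor of neutrophils, fell by 1.63 on the log2 scale, and *Ptgs2*, the inducible cyclooxygenase, by 0.75. The counts were 3 higher and 2 lower without RepB-/- replicate 1 and 3 higher without RepB-/- replicate 2, and between 2 and 5 genes fell over all alternatives.

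Markers of other cell types were measured in the same MEF libraries, and their counts stand against 19.4% of tested genes called higher and 19.7% called lower. The 12 macrophage markers summed to 131 to 168 CPM in RepB-/- and 63.8 to 77.7 CPM in WT, with 4 higher and 1 lower of 9 tested, and none of the 12 was at 0 in every library. *Lyz2* alone was at 90.8 to 120.0 CPM in RepB-/- and 20.3 to 42.6 CPM in WT, while *Ptprc*, a marker of all white blood cells, stayed at or below 1.52 CPM with a log2 fold change of 0.34 (adjusted p = 0.512). Endothelial markers summed to 24.3 to 27.3 CPM in RepB-/- and 38.3 to 46.7 CPM in WT, with 1 higher and 4 lower of 6, and epithelial markers to 11.1 to 15.7 and 30.0 to 39.3 CPM, with 1 higher and 2 lower of 6 tested. Neutrophil markers were at most 3.20 CPM in sum with *S100a9* at 0 in every library, T and NK cell markers at most 5.94 CPM with 1 of 1 tested lower, Kupffer cell markers at most 0.772 CPM with *Clec4f* at 0, erythroid and fetal liver markers at most 1.36 CPM, and stellate cell markers at most 21.6 CPM with 0 of 3 called. The fibroblast markers gave 5 higher and 1 lower of 10, *Postn*, *Dcn*, *Pdgfra*, *Col3a1* and *Col1a1* higher and *Thy1* lower. The fibroblast markers summed to 19770 to 22060 CPM in RepB-/- and 13360 to 17630 CPM in WT. The part of these marker levels in the chemokine differences was not tested, and in bulk RNA more cells of a type cannot be told apart from more RNA per cell.

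In liver the question was whether the same genes differed between genotypes in a whole tissue. No member was called in liver: 5 of the 10 genes were tested and 0 passed an adjusted p of 0.05 by edgeR or by DESeq2, where 0.0373% of all 16080 tested genes were called, 0.00622% higher and 0.0311% lower. With edgeR 1 of the 5, *Cxcl1*, had an unadjusted p under 0.05, and with DESeq2 2 did, *Cxcl1* and *Ccl2*. The spread between replicates was large, with a biological coefficient of variation of 51.2% against 9.06% in MEFs. The median log2 fold change of the 5 genes was -0.36, and that of all tested genes was 0.012.

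**Figure D3:**
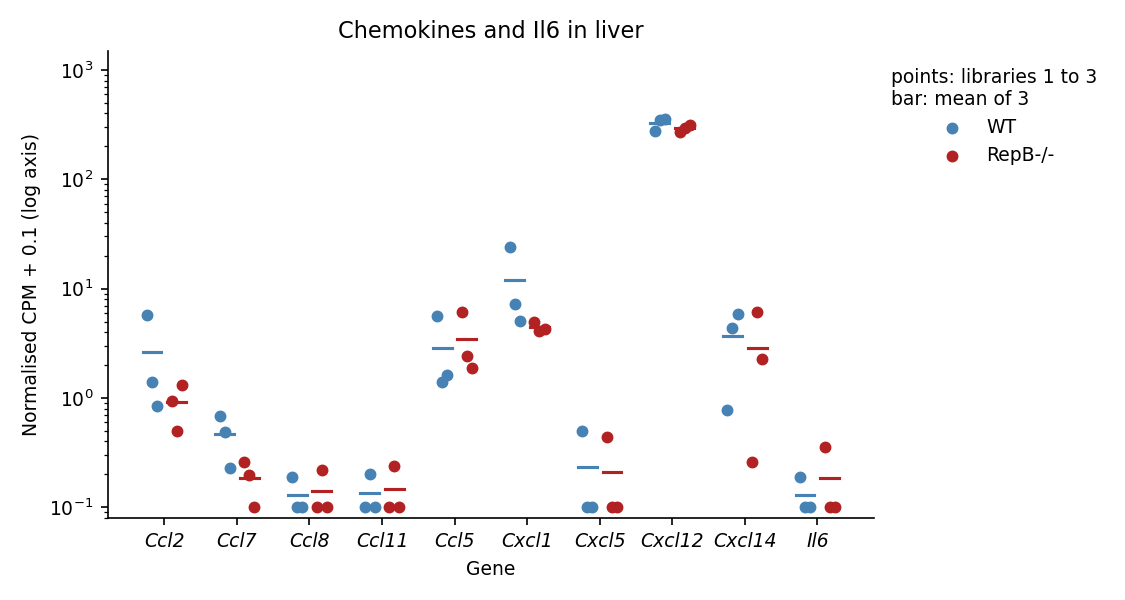
Normalised CPM plus 0.1 (log axis) of the 10 genes in liver, with a point for each of the 3 RepB-/- (red) and 3 WT (blue) libraries and a bar at the mean. Cxcl12 lies between 269 and 359.8 CPM, every other gene is at or below 23.7 CPM, and WT replicate 1 is the highest library for Cxcl1 and Ccl2.

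*Cxcl12* was by far the most abundant of the 10 genes in liver, at 269, 293 and 317 CPM in RepB-/- and at 277, 346 and 359.8 CPM in WT. By CPM the libraries overlapped, and the log2 fold change was -0.16 (95% interval -0.75 to 0.42). In the deposited TPM, which are not TMM scaled, it was at 145 TPM, 131 TPM and 104 TPM in RepB-/- and at 165 TPM, 163 TPM and 169 TPM in WT, with every RepB-/- library below every WT library. The share of all genes with this ordering in TPM was not computed, so the ordering is not read as a difference. *Cxcl12* was the highest of the 10 genes per length in either genotype. The TPM values of the 2 tissues were normalised separately and were not compared by a test.

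*Cxcl1* was at 4.88, 3.97 and 4.20 CPM in RepB-/- and at 23.7, 7.16 and 4.96 CPM in WT. By CPM all RepB-/- libraries were below all WT libraries, an ordering found in 4.66% of tested genes (3.38% had the opposite ordering), and WT replicate 1 was more than 3 times as high as any other library. In the deposited TPM the groups overlapped, with RepB-/- replicate 1 at 8.38 TPM and WT replicate 3 at 7.62 TPM. The log2 fold change was -1.46 (95% interval -2.87 to -0.04, unadjusted p = 0.0454, adjusted p = 1.00 in edgeR), and without WT replicate 1 it was -0.48 (adjusted p = 0.696). WT replicate 1 also held the most *Marco*, 342 CPM against at most 52.8 CPM in the other libraries, a gene of macrophages with a scavenger receptor product. The 5 Kupffer cell markers, *Marco* among them, summed to 811 CPM in WT replicate 1 and to 281 to 407 CPM in the other livers. For the 12 macrophage markers the sums were closer, 605 CPM against 350.5 to 542 CPM. The part of these marker levels in *Cxcl1* was not tested.

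*Ccl2* followed the same library, with 5.60 CPM in WT replicate 1 against 1.29 and 0.739 CPM in the other WT livers and 0.829, 0.397 and 1.22 CPM in RepB-/-. The groups overlapped, the log2 fold change was -1.64 (95% interval -3.70 to 0.42), and without WT replicate 1 it was -0.32. *Ccl5*, which T and NK cells also make, was high in replicate 1 of either genotype, at 6.06 CPM in RepB-/- and 5.51 CPM in WT, and between 1.29 and 2.30 CPM in the other 4 livers. Markers of T and NK cells were also highest in the replicate 1 libraries, with sums of 16.6 and 20.1 CPM in RepB-/- and WT there and 3.97 to 6.84 CPM in the others, and their part in the level of *Ccl5* was not tested. *Cxcl14* was low in replicate 1 of either genotype, 0.158 CPM in RepB-/- and 0.669 CPM in WT, and between 2.16 and 5.997 CPM in the other livers.

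The remaining 5 genes were at or near 0 in liver. *Il6* had 13 counts in RepB-/- replicate 1, 4 counts in WT replicate 1 and 0 in the other 4 libraries, and *Cxcl5* had 17 and 18 counts in the replicate 1 libraries and 0 elsewhere. Every count of these genes thus came from the livers with high *Afp*. *Ccl7* had 8, 5 and 0 counts in RepB-/- and 26, 15 and 6 in WT, *Ccl8* at most 6 and *Ccl11* at most 7 in any library. A library with 0 counts allows up to 0.0582 to 0.0796 CPM at these depths, counting error alone.

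With both replicate 1 libraries left out, and in a further fit without RepB-/- replicate 2 as well, 0 members were called in liver. The log2 fold change of *Cxcl12* was -0.21 and -0.16 in these fits, that of *Cxcl1* was -0.57 and -0.53, and that of *Cxcl14* was -0.28 and -1.21, with adjusted p-values of 0.157 or more. RepB-/- replicate 1 also had the highest levels of neutrophil markers, a sum of 657 CPM for 7 genes against at most 56.5 CPM, with *Cxcr4* at 14.6 CPM against at most 1.45 CPM. None of the 9 pathway lists had a called gene in liver by edgeR, where 0.0373% of all 16080 tested genes were called. Of these 16080 genes, 502 had an unadjusted p under 0.05. The chains of the interleukin 6 receptor were well expressed in liver. *Il6ra* was at 52.2 to 62.4 CPM in RepB-/-, with replicate 2 included, and at 31.4 to 48.7 CPM in WT. All RepB-/- libraries were thus above all WT libraries, an ordering found in 3.38% of tested liver genes. *Il6st* was at 119.6 to 173 CPM in RepB-/- and 90.3 to 120.3 CPM in WT. The log2 fold changes of *Il6ra* and *Il6st* were 0.60 and 0.45 and did not pass the test.

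**Figure D4:**
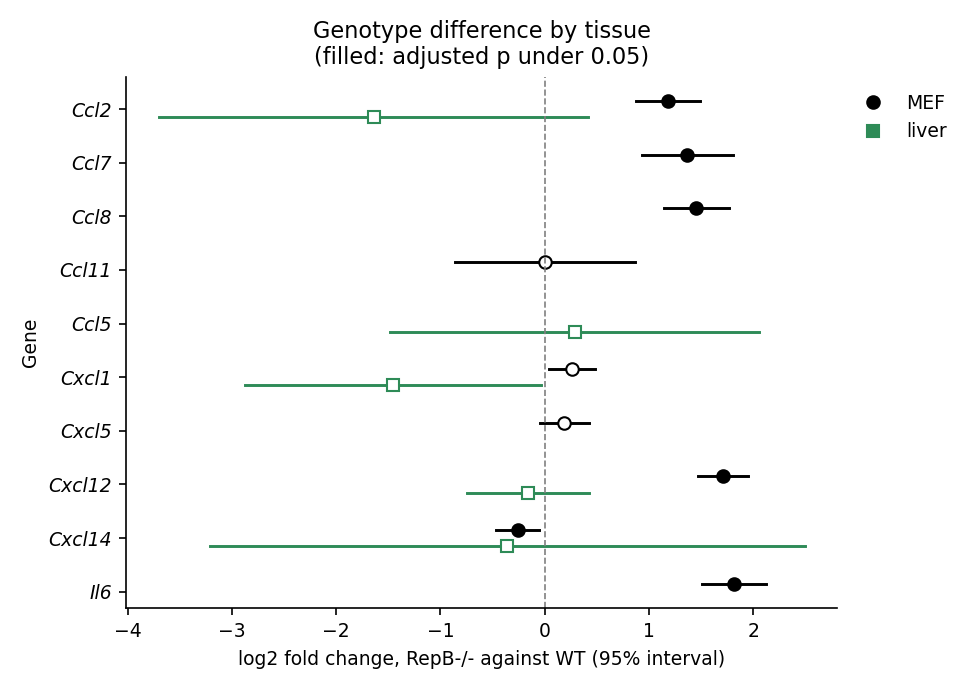
log2 fold change (RepB-/- against WT) with its 95% interval for the tested members in MEFs (circles) and liver (squares), filled where the adjusted p was under 0.05. Intervals in MEFs are short and lie above 0 for Ccl2, Ccl7, Ccl8, Cxcl12 and Il6, and liver intervals are wide with open symbols.

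Whether the genotype difference itself differed between the tissues was tested by an interaction term over all 12 libraries. *Cxcl12* was the sole member called, where 0.388% of the 15208 genes tested were called, 0.118% with a larger and 0.27% with a smaller log2 fold change in MEFs: its log2 fold change was higher in MEFs than in liver by 1.86 (SE 0.276, adjusted p = 0.0400). *Ccl2* had a difference of 2.83 (SE 0.880, adjusted p = 0.185) and *Cxcl1* one of 1.70 (SE 0.634, adjusted p = 0.254). *Ccl7* gave 3.28 (SE 0.844, adjusted p = 0.132), and with replicate number as a block within each tissue 3.49 (adjusted p = 0.0347). *Ccl7* entered this fit through its MEF counts, however, and with at most 26 counts per liver library it was too low to be tested in liver itself, so neither value compares 2 tested effects. For *Il6* the difference was 0.33 with an interval of -4.81 to 5.46, so a difference in either direction was not detectable at its liver counts. The edgeR fit shared its spread over both tissues, a biological coefficient of variation of 37.4%, against 9.06% in MEFs and 51.2% in liver alone. The call of *Cxcl12* was lost without RepB-/- replicate 2 of liver, without WT replicate 2 or 3 of liver and without any 1 of the 6 MEF libraries. In edgeR the adjusted p-values then ran up to 0.140. With limma voom and tissue weights the call was lost too (adjusted p = 0.0502). The difference of *Cxcl12* stayed between 1.75 and 2.01 throughout.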

How the data were processed

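RNA-seq libraries of MEFs and liver were analysed from whole-number counts per gene as deposited, without normalization. Per the methods, stranded mRNA libraries made by Genewiz and Novogene were sequenced as paired ends, trimmed with Cutadapt, aligned with Hisat2 and tested with DESeq2, as stated for MEFs. The submitters' processing notes name Trim Galore 0.4.1, STAR 2.7.0, HTSeq 0.12.4, DESeq2 and deepTools 3.5.0 with builds hg19, GRCm38 and mm10, without saying which made which table. The MEF table has GRCm39 and the liver table GRCm38 coordinates. The FPKM values deposited for MEFs were divided by their sum in each library to give TPM, and the TPM values deposited for liver were used as they are. Another 6 per-library columns (FPKM of liver) were not used.

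Each tissue was fitted by itself over all its genes with edgeR 4.0.16 in R 4.3.3 (TMM, filterByExpr, quasi-likelihood test, Benjamini-Hochberg adjustment, call at an adjusted p under 0.05). The interaction was fitted over all 12 libraries and genes shared by the tables. The fits were tested on simulated data. No 2 libraries agreed within sampling noise. Alternatives were DESeq2 1.42.0, its size factors, library size alone, other filters, a replicate block, limma 3.58.1 voom and left-out libraries. After removal of genotype means, libraries with the same number correlated at -0.011, -0.042 and -0.0035 in MEFs, which the numbers therefore did not pair. In liver they correlated at 0.71, 0.36 and 0.37, and any pairing there comes from the data alone. Removal of the mean ties the 3 libraries of a genotype to each other, and replicate 1 stood apart in both genotypes. The values 0.36 and 0.37 thus do not show that replicates 2 and 3 pair, and libraries with different numbers were not correlated. All 10 members were named, with the genes next to them in their clusters and, per list, up to 4 called genes with the largest change in MEFs and up to 2 in liver; other genes of the lists were named after their values were seen. The members and the 9 pathway and 10 marker lists were chosen with earlier results of these data known. Figures used matplotlib 3.10.9.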

Additional observations from a re-analysis of the deposited data

Results flagged for a closer look

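The genotype difference of *Cxcl12* was flagged because it differed between tissues by the interaction term of edgeR: the log2 fold change in MEFs exceeded that in liver by 1.86 (SE 0.276, adjusted p = 0.0400). *Cxcl12* was higher in RepB-/- in 3 of 3 MEF libraries against every WT library, and its liver libraries overlapped by CPM. In the deposited TPM, which are not TMM scaled, every RepB-/- liver was below every WT liver. The share of all genes with that ordering in TPM was not computed. The adjusted p ran from 0.00295 without both replicate 1 libraries of liver to 0.140 without RepB-/- replicate 2 of MEFs.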

How the results depend on the processing

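In MEFs the numbers of genes and of members called stayed within 1.5 times of 5202 and 6 under every alternative, with 3956 to 5233 genes and 5 to 6 members when single libraries were left out, and *Ccl2*, *Ccl7*, *Ccl8*, *Cxcl12* and *Il6* were called higher in all 12. Scaling by library size alone moved the median of all MEF genes to -0.11 and the share of higher calls from 49.6% to 31.2%. The log2 fold change of *Ccl11* changed sign at -0.0028 with DESeq2 size factors and -0.10 with library size alone, and ran from -0.17 to 0.24 with single libraries left out. The replicate block gave 5006 genes and 7 members in MEFs, with *Cxcl1* added (adjusted p = 0.0305 in edgeR), and 8 genes and 0 members in liver; it changed no other call of a member within a tissue. In liver 6 genes were called, 80 with DESeq2, 0 with library size alone and 0 without a filter, 2 without both replicate 1 libraries, 3 with a term for replicate 1 and RepB-/- replicate 2 left out, and 252 without all 3 of these libraries, which was chosen after seeing the data; single libraries left out gave 0 to 4. There *Ccl2* turned to 0.27 without the 3 libraries, and leave-one-out values ran from -0.44 to 1.27 for *Ccl5* and from -1.63 to 0.21 for *Cxcl14*. The interaction called 1 member, 0 without liver RepB-/- replicate 2, 0 with limma voom, 2 with the replicate block (adding *Ccl7*, which was too low to be tested in liver) and 0 to 1 when single libraries were left out, which was also added after seeing the data. Without liver RepB-/- replicate 2 the difference between tissues turned for *Ccl11* (3.53), *Cxcl5* (-0.24) and *Il6* (-0.26), and without both replicate 1 libraries for *Ccl8* (-3.06). With single libraries left out it ran from -4.08 to 0.029 for *Ccl11*, -5.15 to 5.70 for *Cxcl5*, -3.13 to 5.26 for *Il6*, -2.45 to 1.59 for *Ccl8* and -0.47 to 0.59 for *Cxcl14*. *Ccl11*, *Cxcl5*, *Il6* and *Ccl8* entered this fit through their MEF counts and were too low to be tested in liver. Their values thus do not compare 2 tested effects. Without both replicate 1 libraries *Il6* and *Cxcl5* had no liver counts. The causes were not tested. Depth limits *Ccl5* and *Ccl11* in MEFs and 5 of the 10 genes in liver, where a spread of 51.2% between replicates limits the rest.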
